A study of Mus musculus with 4 samples.

Results

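The Krüppel-like factor (KLF) genes described here are 10 mouse genes, Klf2, Klf3, Klf4, Klf5, Klf6, Klf7, Klf9, Klf10, Klf13 and Klf16, out of 21887 protein-coding genes. They were taken by symbol, and all 10 were found. Klf4 is the factor that the series title pairs with NKX2.2, and its locus was set against those of its relatives. NKX2.2 is a homeodomain transcription factor of the endocrine pancreas. Its genomic binding was mapped in wild-type (WT) alphaTC6 cells by ChIP-seq (chromatin immunoprecipitation with sequencing), in which DNA bound by a protein is pulled down with an antibody and read. The 2 NKX2.2 ChIP samples and the 2 input samples, which are DNA without enrichment, came from this 1 line, and the labels name no treatment. The alphaTC lines are transformed mouse cells that make glucagon and derive from tumours driven by a viral T antigen under the glucagon gene promoter, so they stand for alpha cells only as such a line does. Their identity was not checked here, because a list of binding positions holds no expression values.

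KLF proteins are zinc finger transcription factors. They bind GC-rich sequence and CACCC boxes through fingers at their C-terminal end, and their N-terminal parts differ and recruit different partners. One group of the family mainly activates transcription, another binds the corepressor CtBP, and the last binds the corepressor SIN3. KLF4 is best known from epithelial differentiation and from the reprogramming of cells to pluripotency.

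The data are 1 list of 7384 peak summits, of which 7380 lie on assembled chromosomes. A summit is the base of strongest enrichment in a peak. Each has a score, taken here as the −log10 of the q-value of ChIP against input, since the list has no header. Read so, a higher score means a call that is less likely to be noise. It is no measure of how much protein was bound. The list gives no value per library, so library depth is unknown, no value has a replicate error and no difference between genes was tested. A locus without a summit is one where no peak was called, which at unknown depth does not show that NKX2.2 was absent. Positions count from 1 on mouse build mm10 (GRCm38), and exons and introns were not told apart.

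NKX2.2 summits were called close to most of these genes: 7 of the 10 had at least 1 in the gene or at most 10 kb from it. The 7 were Klf2, Klf4, Klf7, Klf9, Klf10, Klf13 and Klf16, with 15 summits in all. Of all protein-coding genes, 25.8% had a summit at that distance. Klf3, Klf5 and Klf6 had no summit within 10, 50 or 100 kb. The share within 10 kb differed between chromosomes. On those of the 7 members with a summit it ran from 26.8% (Klf13) to 34.1% (Klf10) of protein-coding genes. On those of Klf3, Klf5 and Klf6 it was 30.8%, 6.46% and 23%. The members were chosen with earlier results known, and the family as a whole was lower, with 8 of 17 genes. At 50 kb the count of members stayed at 7, against 43.8% of all genes, and at 100 kb it was again 7, against 55.3%. The gap between members and all genes was thus widest at 10 kb and narrowed with distance, since no member was gained. Longer genes had summits more often: one lay within 10 kb of 17.3% of genes shorter than 10 kb, 27.2% of those from 10 to 50 kb and 36.9% of longer ones. Klf7 (92.9 kb) and Klf13 (52.6 kb) belong to the last class, and Klf2 (2.59 kb), Klf4 (5.34 kb), Klf6 (8.90 kb) and Klf10 (9.25 kb) to the first.

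**Figure D1:**
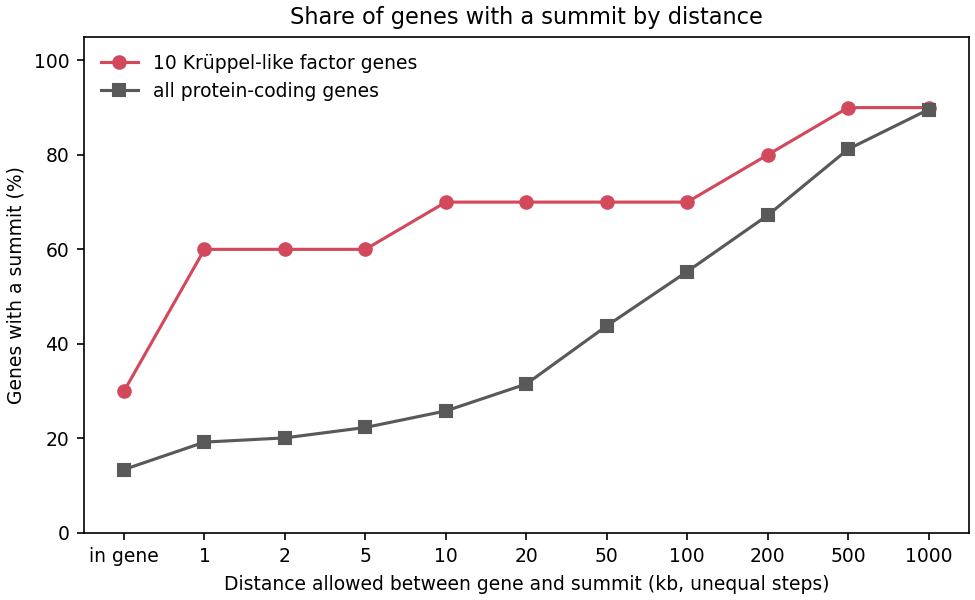
Percent of genes with a summit (y axis) by the distance allowed between gene and summit in kb (x axis, unequal steps), for the 10 KLF genes and for all 21887 protein-coding genes. The KLF curve is flat at 70% from 10 to 100 kb, while the curve of all genes climbs from 25.8% to 55.3%.

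Several summits per gene were frequent among the members. At least 2 summits within 10 kb were found at 5 members (Klf4, Klf7, Klf9, Klf10 and Klf13), against 6.79% of protein-coding genes. At least 3 were found at Klf7, Klf9 and Klf13, against 2.02%. The mean was 1.5 summits per member and 0.361 per protein-coding gene. Summits within 1 kb of either gene end were found at Klf4, Klf9, Klf10, Klf13 and Klf16, which is 5 of 10 members, against 11.4% of all genes. The summits inside the gene belonged to Klf7, Klf9 and Klf13, which is 3 of 10 members, against 13.4%. All these shares are over genes of every length, and Klf7 and Klf13 are longer than 50 kb.

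**Figure D2:**
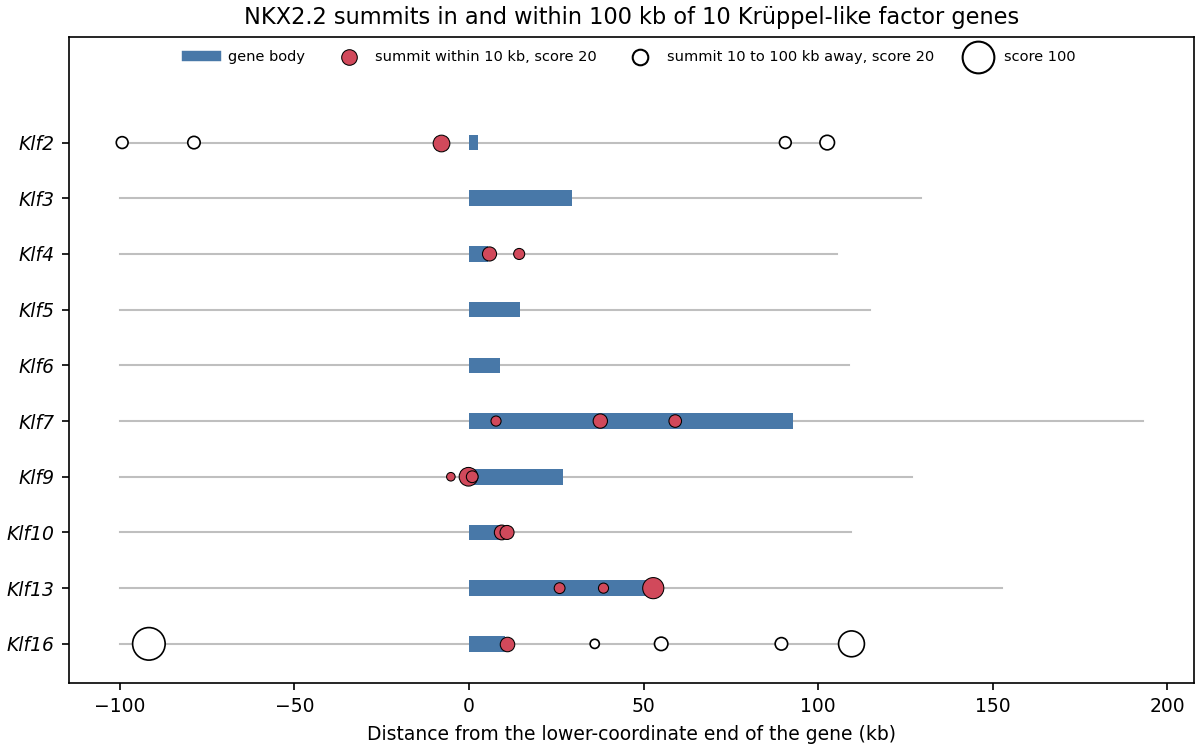
Map of the 10 loci. The x axis is the distance in kb from the lower-coordinate end of each gene, bars are gene bodies, grey lines span 100 kb to each side, and the area of a circle grows with the summit score. Filled circles within 10 kb of a gene are found at 7 genes, and the lines of Klf3, Klf5 and Klf6 are empty.

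To show what lies beside the starts of these genes, promoter sequences were taken from RefSeq (GRCm38.p6), where 7 of the 10 members have an entry. Klf5, Klf10 and Klf16 have none. The 250 bases before the start are printed 5′ to 3′ in the direction of the gene. Klf9 and Klf13 are shown because a summit falls inside this stretch, Klf4 because it is the partner factor, and Klf3 because it holds the most motif matches and has no summit within 100 kb. Capitals mark AAGTG, the core of NKX2 binding sites, or CACCC, the core of KLF sites, each searched on both strands, so that CACTT and GGGTG are marked too. The windows are chr4:55532476-55532725 (minus strand) for Klf4, chr19:23140976-23141225 (plus) for Klf9, chr7:63938916-63939165 (minus) for Klf13 and chr5:64803271-64803520 (plus) for Klf3.
Klf4: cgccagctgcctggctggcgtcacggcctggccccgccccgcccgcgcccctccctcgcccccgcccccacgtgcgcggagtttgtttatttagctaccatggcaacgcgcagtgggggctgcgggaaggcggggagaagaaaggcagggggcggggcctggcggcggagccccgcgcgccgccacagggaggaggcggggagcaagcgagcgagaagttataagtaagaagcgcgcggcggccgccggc
Klf9: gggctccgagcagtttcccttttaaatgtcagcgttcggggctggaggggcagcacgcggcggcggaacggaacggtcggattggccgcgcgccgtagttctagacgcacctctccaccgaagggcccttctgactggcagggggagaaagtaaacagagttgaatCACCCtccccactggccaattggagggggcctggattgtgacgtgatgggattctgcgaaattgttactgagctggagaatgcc
Klf13: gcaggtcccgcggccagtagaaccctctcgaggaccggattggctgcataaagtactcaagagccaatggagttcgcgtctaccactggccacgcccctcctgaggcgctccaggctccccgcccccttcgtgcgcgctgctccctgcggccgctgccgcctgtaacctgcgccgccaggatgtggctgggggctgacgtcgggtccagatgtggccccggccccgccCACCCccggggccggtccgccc
Klf3: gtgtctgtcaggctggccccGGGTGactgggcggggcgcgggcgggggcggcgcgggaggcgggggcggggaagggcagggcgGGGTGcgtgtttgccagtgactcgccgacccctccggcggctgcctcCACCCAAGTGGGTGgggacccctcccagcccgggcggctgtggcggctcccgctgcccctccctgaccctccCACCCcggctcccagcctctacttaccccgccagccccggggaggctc

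The CACCC core occurred in 5 of the 7 member windows, at 5 places in Klf3, 3 in Klf7 and 1 each in Klf2, Klf9 and Klf13. It occurred in 52.0% of 32841 such windows in the RefSeq table. These include windows of noncoding genes and, for some genes, more than 1 window. The AAGTG core was found only in the window of Klf3, where it overlaps one CACCC match read on the other strand, against 40.7% of all windows. A longer NKX2 pattern, TNAAGTGG, was in none of the 7, against 2.74%. In Klf9 the summit is base 95 of the window, 72 bp from the CACCC match, and in Klf13 it is base 58, 171 bp from it. Of the 1336 windows in the table that hold a summit, 38.8% had AAGTG and 57.3% had CACCC. These matches describe the letters of a 250-base stretch and say nothing of binding.

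All 7 windows were rich in G and C. Their GC content ran from 59.2% in Klf7 to 78.4% in Klf3, against a median of 52.4% over all windows and 61.2% over windows with a summit. Windows of noncoding genes are included in both, so these medians are not those of protein-coding promoters alone. Klf4 had 74.0% and 32 CpG dinucleotides, the most of the 7, with a median of 6 over all windows and 18 over those with a summit. Klf9 and Klf13, with a summit inside the window, had 18 and 24 CpG. Klf2, Klf3, Klf6 and Klf7, with no summit within 1 kb of the start, had 29, 23, 21 and 13. The CpG counts of members with and without a summit near the start overlapped, and the lowest was that of Klf7.

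**Figure D3:**
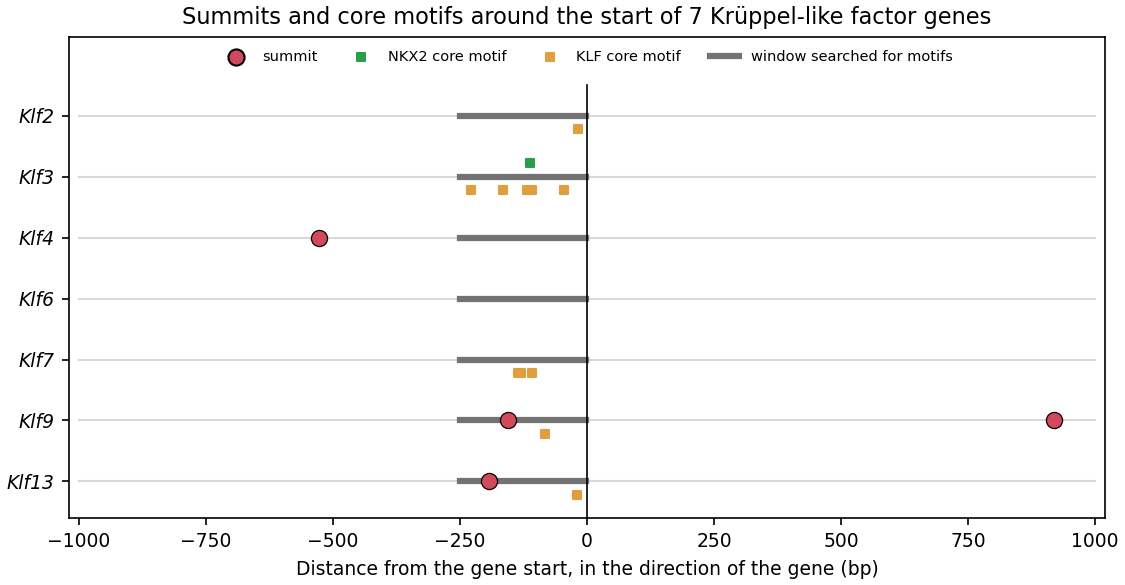
Summits (circles) and core motifs (squares) within 1000 bp of the start of the 7 KLF genes with a RefSeq promoter entry, with the distance in bp in the direction of the gene on the x axis and the 250-base window as a thick line. Klf4, Klf9 and Klf13 have a summit before the start, only those of Klf9 and Klf13 inside the window, and Klf9 has a further one 919 bp after it.

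Klf4 (gene ID 16600) lies on chromosome 4 from 55527137 to 55532475, on the minus strand. It had 2 summits, both before its start and none inside the gene. The nearer one, at 55533003, lay 528 bp before the start with a score of 15.4 and ranked 3322 in the list. The farther one, at 55541496, lay 9021 bp before the start with a score of 7.38. Neither stood high in the list, where 55.0% of summits scored below the first and 22% below the second. Both lay inside the annotated long noncoding RNA (lncRNA) gene Gm12506, which starts at 55532710 on the plus strand, 235 bp from the Klf4 start, and runs away from it. The nearer summit lay 293 bp after the start of Gm12506. It could be assigned to either gene by position, and the farther one also lay inside a small lncRNA gene, Gm34343. No other protein-coding gene lay within 100 kb of Klf4. The next summits were 119 kb away on the side of its start, with a score of 2.31, and 177 kb away on the other side, beside Rad23b, with a score of 18.2.

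Klf2, Klf5, Klf6 and Klf7 are grouped with Klf4 as mainly activating factors. Klf2, known for the quiescence of blood vessel endothelium and T cells, lies on chromosome 8 from 72319062 to 72321654. Its 1 summit within 10 kb, at 72311137, lay 7925 bp before the start with a score of 23.7. There was no summit at the gene ends themselves, unlike at Klf4. A further 4 summits lay between 78.8 and 100 kb away, with scores from 8.98 to 16.7. They belonged by position to the neighbours Fam32a, Ap1m1 and Eps15l1, inside these genes or at most 64 bp from them.

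Klf7, known for the outgrowth of nerve fibres, lies on chromosome 1 from 64029448 to 64122345. It had 3 summits, all inside the gene, at 64037182, 64067038 and 64088499. Their scores were 5.26, 16.0 and 11.2, and the middle one by position was the highest. All lay deep in the gene, 32.9 to 84.2 kb after the start in the promoter table, so Klf7 had none near its start. The one nearest to the start also lay inside the lncRNA gene Gm13748.

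Klf5, a factor of dividing intestinal crypt cells, and Klf6, described as a tumour suppressor, had none. The nearest summit was 1145885 bp from Klf5, and 8.04% of protein-coding genes with a summit on their chromosome were farther from one. It lay at 100459297 of chromosome 14 with a score of 32.0, and its nearest protein-coding gene was another family gene, Klf12, at 173 kb. Chromosome 14 held 76 summits, and 21.6% of its genes had one within 100 kb, against 55.3% overall. At Klf6 the nearest summit was 427793 bp away, with a score of 68.0, higher than any summit within 10 kb of the members. Klf6 was the closest protein-coding gene to it. On chromosome 13, 51.5% of genes had a summit within 100 kb, so the 2 empty loci lay on chromosomes that differ in how many summits they hold.

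Klf3 is the only member of the CtBP-binding group, whose proteins act mostly as repressors. It lies on chromosome 5 from 64803521 to 64832901, and the nearest summit was 187378 bp away, inside Fam114a1, with a score of 9.28. Of protein-coding genes with a summit on their chromosome, 33.2% were farther from one. Its 2 protein-coding neighbours within 100 kb, Gm38457 and Tlr1, had no summit within 10 kb either.

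Klf9, Klf10, Klf13 and Klf16 belong to the SIN3-binding group. Each had a summit within 1 kb of a gene end, as had Klf4, against 11.4% of all protein-coding genes. The SIN3-binding genes outside the members, Klf11 and Klf14, had none that close. Klf9, a gene induced by glucocorticoids and thyroid hormone, lies on chromosome 19 from 23141226 to 23168129. Its main summit, at 23141070, lay 156 bp before the start with a score of 31.0. A second, at 23142145, lay 919 bp after the start with a score of 9.08. The last, at 23136021, lay 5205 bp before the start, inside the lncRNA gene 2410080I02Rik, and its score of 2.25 was close to the lowest of the list, 2.03. The first of these scored above 78.4% of all summits, and the last above 0.298%.

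Klf13, known for driving the chemokine RANTES in T cells, lies on chromosome 7 from 63886351 to 63938915. The summit at 63939108, 193 bp before the start, had a score of 41.4, the highest within 10 kb of any member, and 84.7% of all summits scored lower. The other 2 lay inside the gene at 63912287 and 63924858, 26.6 and 14.1 kb after the start, with scores of 6.86 and 5.29. At Klf13, as at Klf9 and Klf4, the nearest summit before the start scored higher than the others of the gene.

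Klf10, an early response gene to TGF-beta, lies on chromosome 15 from 38291464 to 38300711. It had 2 summits, at 38300831 and 38302348, 120 and 1637 bp beyond the upper end of the gene. Their scores of 17.4 and 15.2 were close to each other. Both lay inside the lncRNA gene Gm35248, which overlaps that end. Klf16, described as a regulator of dopamine receptor genes, lies on chromosome 10 from 80567121 to 80577296. Its summit at 80577922, 626 bp beyond the upper end, had a score of 16.6 and lay 202 bp from the lncRNA gene Gm26710.

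Klf16 sat in the most crowded surroundings, with 9 other protein-coding genes within 100 kb, 6 of which had a summit within 10 kb. A summit near several genes was counted for each of them. Its other 5 summits within 100 kb were nearest to those neighbours. The highest, at 80475435 with a score of 105.4, lay 91.7 kb from Klf16 and 19.5 kb from Onecut3, a homeodomain gene. Another, at 80676648 with a score of 64.6, lay 355 bp from Mknk2, which encodes a kinase. Every one of the 9 summits between 10 and 100 kb from a member was at Klf2 or Klf16 and closer to another protein-coding gene. All 15 summits within 10 kb had the member as their nearest protein-coding gene.

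By the score of the highest summit within 10 kb, the order was Klf13 (41.4), Klf9 (31.0), Klf2 (23.7), Klf10 (17.4), Klf16 (16.6), Klf7 (16.0) and Klf4 (15.4). Klf4 was thus the last of the 7. The last 4 lay within about 2 score units of each other, and the spread between replicates is unknown, so it cannot be said which neighbours in this order differ. The 15 scores ran from 2.25 to 41.4 with a median of 15.2, and 8 of them lay above the median of the list, 13.7. The 6 summits within 1 kb of a member's end had a median score of 17, against 12.5 for the 2155 summits within 1 kb of any protein-coding gene end. Of those 2155, 58.8% scored below the Klf4 summit, 61.9% below that of Klf16, 63.8% below that of Klf10, 81.9% below the higher of Klf9 and 87.6% below that of Klf13. The lower one of Klf9, at 23142145, stood lower, with 33.1% of them below it.

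**Figure D4:**
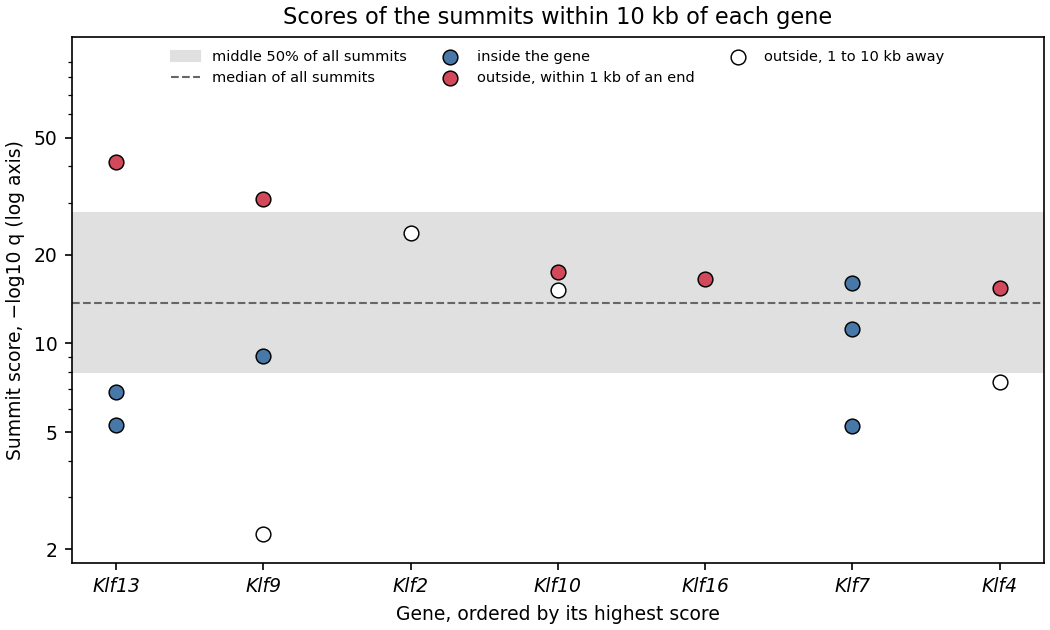
Score of each of the 15 summits within 10 kb of a KLF gene (y axis, −log10 q, log axis), by gene in the order of the highest score. The band is the middle 50% of all summits, 7.98 to 27.7, and the dashed line their median of 13.7. The highest points of Klf13 and Klf9 lie above the band, and that of Klf4 is the lowest of the 7 genes.

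Start sites could be compared where RefSeq gives the strand. Klf4, Klf9 and Klf13 had a summit in the 1 kb before the start, which is 3 of 7 members, against 8.74% of 17492 protein-coding genes in the table. In the 1 kb after the start only Klf9 had one, against 4.13%. LncRNA genes held 6 of the 15 summits, at Klf4, Klf7, Klf9 and Klf10, against 12.5% of all summits. Both Klf4 and both Klf10 summits are among them, so the 6 come from 4 loci.

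Among the 7 KLF genes outside the members, 1 had a summit within 10 kb, against 25.8% of all protein-coding genes. It was Klf11, a SIN3-binding relative of Klf10, with a score of 4.26 at 24642638 of chromosome 12, 8733 bp before the start. Klf1, Klf8, Klf12, Klf14, Klf15 and Klf17 had none. Within 50 kb the count was 2 of 7, against 43.8% of all genes, and within 100 kb it was 4 of 7, close to the 55.3% of all genes. Sorted by the textbook groups of the family, an ordering drawn up after the values were seen, a summit lay within 10 kb of 5 of 6 SIN3-binding genes, 3 of 6 activators and 0 of 3 CtBP-binding genes (Klf3, Klf8 and Klf12), against 25.8% of all protein-coding genes. The other 2 genes of the 17, Klf15 and Klf17, were put in none of these groups and had none. Klf14 was the SIN3-binding gene without one. Klf8 lies on the X chromosome and Klf12 on chromosome 14. The groups are small and the difference between them was not tested.

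The Sp genes encode zinc finger factors of the same wider family. Of Sp1 to Sp9, 1 had a summit within 10 kb, against 25.8% of all genes, and 3 and 4 had one within 50 and 100 kb, against 43.8% and 55.3%. It was Sp1, with a score of 25.5 at 102405586 of chromosome 15, 730 bp outside the gene. This was also the only summit within 50 kb of Sp7, on the same chromosome, so it was counted for both genes there. Of 8 genes for partner proteins of KLF factors, 5 had a summit within 10 kb, against the same 25.8%. They were the corepressor genes Ctbp2 (highest score 58.0, inside the gene), Ctbp1 (16.4, 706 bp outside) and Sin3a (8.37, inside), and the acetyltransferase genes Kat2b (13.2, inside) and Ep300 (11.7, 760 bp outside). The histone deacetylase genes Hdac1, Hdac2 and Hdac3 had none at that distance. Ctbp2, Sin3a, Kat2b and Ep300 are longer than 50 kb, a class in which 36.9% of protein-coding genes had one. Ctbp1 and the deacetylase genes are from 10 to 50 kb long, a class in which 27.2% had one.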

How the data were processed

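NKX2.2 ChIP (2 samples) and input (2 samples) of alphaTC6 cells were grouped by their titles. FastQC, Bowtie2 and MACS2 and the build mm10 are named in the submitters' processing notes, and the labels' design text gives MACS2 as the peak caller. Tool versions and whether replicates were pooled are not given in the sources used here. The deposited values are taken as −log10 q-values, 1 per summit, as MACS2 writes them.

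From this list, summits in or within 10, 50 and 100 kb of each gene were counted against the RefSeq genes of GRCm38.p6, the same build. Promoter windows came from RefSeq. The planned comparison of KLF protein sequences is not analysed here. The members and gene lists were chosen with earlier results of these data known. The genes named are the 10 members, the listed family, Sp and partner genes with a summit within 10 kb, and the nearest genes of members' summits; further names were chosen after their values were seen. Alternatives changed the score minimum, merging, distance, gene set and background. Counting and motif search were tested on simulated data with planted summits. Python 3.11.15, numpy 2.4.6 and pandas 2.3.3 were used.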

Additional observations from a re-analysis of the deposited data

How the results depend on the processing

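No paired analysis was possible because summits carry 1 score for the whole series, so neither replicate could be dropped or blocked. Merging summits within 500 bp left every count of the members unchanged and is no check. The closest neighbours within 10 kb of a member lay 1075 bp apart, so it had nothing to join there. The count of 7 members with a summit was the same at score minimums of 5 and 10, at 10, 50 and 100 kb. It was 6 with 5 kb around the gene and 3 in the gene body alone; there Klf4 had 1 and 0 summits, and the members 12 and 6. At a score minimum of 10, summits of the members fell to 9, 10 and 15 within 10, 50 and 100 kb, and those of Klf4 to 1 at each distance. Over all 17 KLF genes, 8, 9 and 11 had a summit within 10, 50 and 100 kb. The background moved to 16.7%, 33.9% and 46.2% with annotated genes of every type, and to 18.2%, 33.7% and 45.4% of protein-coding genes at a score minimum of 10. Of 39 counts under these alternatives, the background aside, 28 stayed within 1.5 times the reported count and 11 did not. The 28 include the merged counts. Each setting keeps fewer summits, a smaller window or more genes. The tally is of raw counts and compares no shares. The 8 of 17 genes at 10 kb are among those that stayed, and the 11 of 17 at 100 kb among those that did not, both set against 7 of 10. With depth unknown, an empty locus shows only that no peak was called there.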
